A study of Mus musculus with 17 samples.

Results

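Cytosolic ribosomal protein genes were followed in whole hippocampus of adult mice. The 78 genes were chosen by symbol, as those named Rpl, Rps or Rplp with a number, without pseudogenes, and with at least 10 uniquely mapped reads in each of the 17 libraries. They were 78 of the 81 genes with such a symbol and of the 55450 genes in the count tables, and 17615 genes entered the tests. The set held 47 genes of the large (60S) subunit and 31 of the small (40S) subunit. Rps10, with 21 reads in its lowest library, lay nearest above the minimum, and the next gene, Rpl13a, had 189. Rpl3l, with 0 to 20 reads, Rpl39l, with 0 to 6, and Rpl10l, with 0 in every library, lay outside it. A count of 0 allows up to 3 reads, which was 0.106 to 0.253 CPM, the reads of a gene scaled to the size of the library, depending on the library. Rpl41 had no matched symbol and was not analysed here. Rps4l was held under the symbol Rps4y2, which the symbol rule leaves out, and is given further below.

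The C57BL/6J mice fell into 3 groups. The 5 control sgLacZ mice were sham controls, and the 6 epileptic sgLacZ and 6 epileptic sgKcna1 mice had received kainic acid in the right amygdala, which causes status epilepticus and later spontaneous seizures. All groups, controls included, received a pair of AAV9 vectors in the right ventral hippocampus and a doxycycline diet. One vector carried dCas9-VP64, a nuclease-dead Cas9 fused to a transcriptional activator, under a doxycycline-responsive promoter. The other carried the guide RNA with rtTA and tdTomato under the Camk2a promoter, which favours excitatory neurons, so only part of the cells in each sample could respond. The guide targeted lacZ, which mice lack, or the promoter of Kcna1, the gene of the potassium channel Kv1.1. No control group received sgKcna1, so an effect of that guide outside epilepsy cannot be told apart from its effect within it. The labels do not give the sex of the mice.

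Each ribosome needs one copy of nearly every ribosomal protein, so cells make these mRNAs in step. Many begin with a C followed by a run of pyrimidines, the 5′ terminal oligopyrimidine (TOP) tract, through which mTORC1 and LARP1 control their translation. In neurons, ribosomal protein mRNAs are abundant in the soma and are also found in dendrites and axons.

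The start sites below are shown because the TOP tract is the best known shared element of these genes. RefSeq promoter windows on GRCm38.p6, 250 bases before to 50 after the annotated start, were matched for 58 of the 78 genes. Capitals mark a run of at least 5 pyrimidines that begins with C at the annotated start, and each line gives 20 bases before and 10 after it. The first 4 genes had such a run, and Rpl22l1 and Rpl7l1, paralogues of Rpl22 and Rpl7, did not.
Rps27, chr3:90213639-90213668, minus strand: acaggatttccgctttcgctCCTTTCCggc
Rps6, chr4:86857358-86857387, minus strand: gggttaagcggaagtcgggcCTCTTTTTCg
Rps18, chr17:33955656-33955685, minus strand: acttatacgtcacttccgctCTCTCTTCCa
Rpl38, chr11:114668560-114668589, plus strand: ccggaagcggaagcctcgttCTTTCCCCgt
Rpl22l1, chr3:28805488-28805517, plus strand: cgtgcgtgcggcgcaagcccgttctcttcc
Rpl7l1, chr17:46782647-46782676, minus strand: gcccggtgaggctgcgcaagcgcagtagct

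Such a run stood at the annotated start of 13 of the 58 genes (22.4%), in 13 of their 69 windows (18.8%), against 823 of all 32851 windows (2.51%). The 13 were Rpl14, Rpl15, Rpl28, Rpl35, Rpl35a, Rpl38, Rplp2, Rps6, Rps10, Rps15a, Rps18, Rps21 and Rps27. In Rps24, a run of 6 pyrimidines at the start began with T and was not counted. The ETS core CCGGAAG, searched on both strands of the 300-base window, was in 34.8% of the windows of these genes and 8.86% of all windows. The YY1 core AAGATGG was in 17.4% against 6.34%, the SP1 core GGGCGG in 60.9% against 35.7%, the E-box CACGTG in 11.6% against 7.15%, and TATAAA in 10.1% against 13.6%. Matches of different motifs were counted apart, also where they lay over each other. The 120 bases before the starts of Rps27, Rpl38 and Rpl22l1 are shown because they hold different motifs, with every match in capitals. Rps27 has the YY1 core, Rpl38 the SP1 and ETS cores, and Rpl22l1 the TATA motif on each strand.
Rps27, chr3:90213649-90213768, minus strand: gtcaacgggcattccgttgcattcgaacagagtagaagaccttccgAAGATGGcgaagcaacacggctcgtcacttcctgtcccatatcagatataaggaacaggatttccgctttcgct
Rpl38, chr11:114668460-114668579, plus strand: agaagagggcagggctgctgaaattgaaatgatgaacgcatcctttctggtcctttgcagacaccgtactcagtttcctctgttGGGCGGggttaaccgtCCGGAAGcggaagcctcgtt
Rpl22l1, chr3:28805388-28805507, plus strand: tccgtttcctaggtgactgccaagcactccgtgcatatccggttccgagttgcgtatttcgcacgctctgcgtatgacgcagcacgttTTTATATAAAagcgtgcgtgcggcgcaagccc

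Libraries held 11839240 to 28311328 reads in genes. Kcna1, the targeted gene, was at 25.5 to 44.0 CPM in controls, 16.9 to 56.7 in epileptic sgLacZ and 13.9 to 133 in epileptic sgKcna1 libraries, whose median was 19.1. No difference in it was found between the last 2 groups (log2 fold change 0.32 ± 0.47 SE, edgeR adjusted p = 0.71). With an SE of this size a rise or a fall could be missed. By quantitative PCR the paper measured more Kcna1 in sgKcna1-injected hippocampi than on the opposite side. The paper saw no clear rise by RNA sequencing, and proposes that few Kcna1 reads may be the reason. Library 12 of the sgKcna1 group stood apart, with the fewest reads in genes and 41.5% of its reads unmapped, against 11.0% to 27.7% in the other 16. Summed levels of the neuronal markers (7 of 7 genes tested) were 6885 to 7511 CPM in control, 6550 to 8519 in epileptic sgLacZ and 6744 to 8117 in epileptic sgKcna1 libraries. Of these markers 1 was called higher in epileptic sgLacZ than in control libraries (edgeR adjusted p under 0.05), as 7.26% of all genes were.

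Ribosomal protein mRNAs took 3.23% ± 0.31 of gene reads in control libraries (SD, n = 5), 2.31% ± 0.75 in epileptic sgLacZ (n = 6) and 2.87% ± 0.45 in epileptic sgKcna1 libraries (n = 6). The 5 controls had 3.66%, 3.45%, 3.00%, 3.01% and 3.01%. The epileptic sgLacZ libraries ran from 1.49% through a median of 2.16% to 3.54%, and the epileptic sgKcna1 libraries from 2.52% through 2.76% to 3.71%. The epileptic sgLacZ group thus overlapped the controls through 1 library, number 5, and the other 5 lay at or below 2.76%. The large subunit took 1.87% ± 0.16, 1.37% ± 0.42 and 1.67% ± 0.22 of reads in the 3 groups, and the small subunit 1.36% ± 0.15, 0.94% ± 0.33 and 1.20% ± 0.23. In bulk tissue, fewer cells rich in these mRNAs and less of them per cell cannot be told apart.

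**Figure D1:**
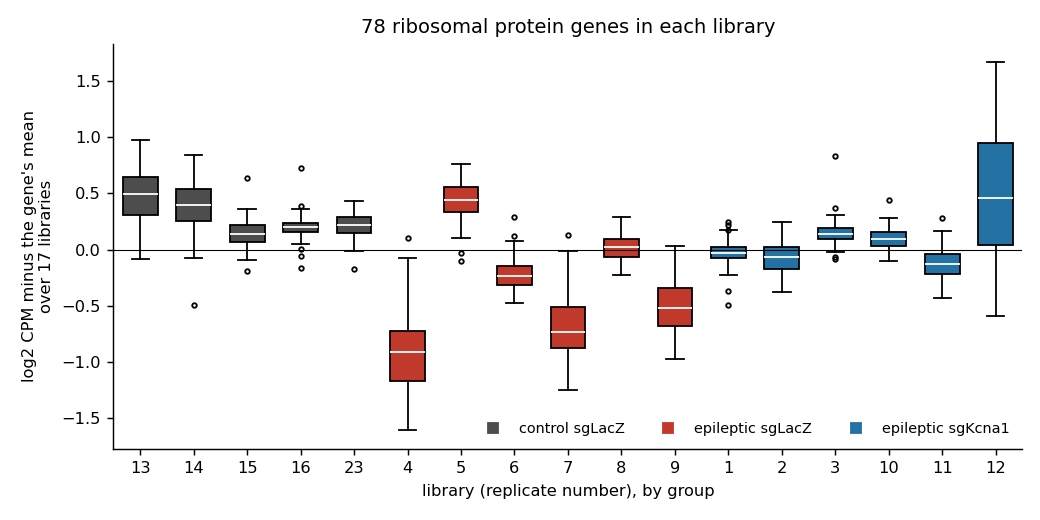
Each box shows the 78 ribosomal protein genes in 1 library, as log2 CPM minus the gene's mean over the 17 libraries (line, median; box, quartiles; whiskers, up to 1.5 times the box). Control medians lie between 0.14 and 0.49, epileptic sgLacZ medians between -0.91 and 0.44, and library 12 of the sgKcna1 group has the widest box.

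In many libraries nearly all of the genes lay on the same side of their means. In epileptic sgLacZ libraries 4, 7 and 9, 1 of the 78 genes was above its mean over all libraries, 4 were in library 6, and in library 5 of the same group 76 were. Control libraries had 74 to 76 genes above their mean. Other libraries were more mixed, with 45 genes above in epileptic sgLacZ library 8, and 25, 24 and 59 in epileptic sgKcna1 libraries 1, 2 and 12.

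The share of reads that mapped to several places, which were not counted, moved with these values. It was 6.60% to 6.98% of mapped reads in controls, 3.59% to 6.51% in epileptic sgLacZ and 5.57% to 7.04% in epileptic sgKcna1 libraries. The share of unmapped reads was 19.5% to 27.7%, 11.0% to 24.1% and 19.1% to 41.5% in the same order. Epileptic sgLacZ library 4 was lowest in both and in its ribosomal protein share, and its neighbours in that order were libraries 7 and 9 of the same group. The part of mapping in the differences below was not tested by these values, and a fit with the unmapped share as a covariate is given beside the result.

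**Figure D2:**
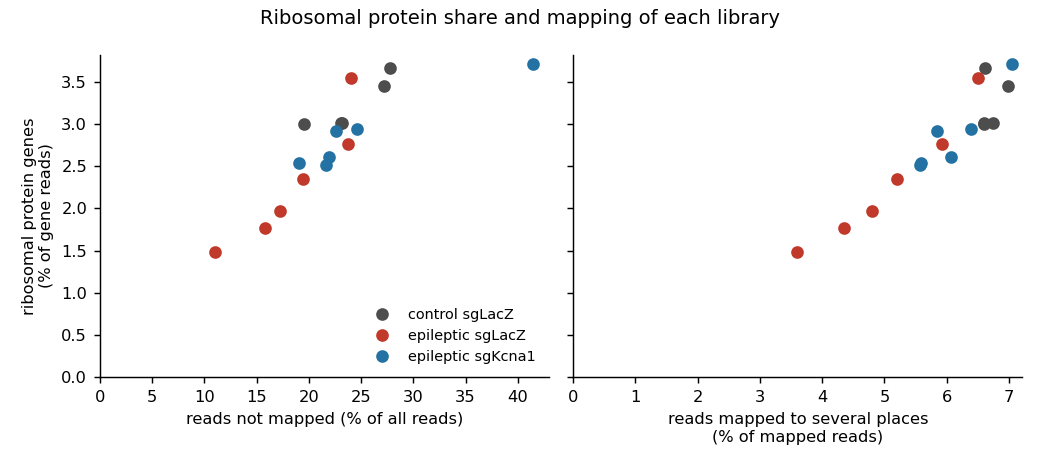
Ribosomal protein reads as a percent of gene reads in each of the 17 libraries, against the percent of all reads left unmapped (left) and the percent of mapped reads with several places (right); colours mark the groups. Epileptic sgLacZ library 4 sits lowest at 1.49%, and sgKcna1 library 12 at 3.71% lies far right in the left panel.

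Levels differed widely between the genes when counted per length. The highest, as CPM per kilobase of transcript averaged over the group means, were Rplp1 at 2981, Rps14 at 1394, Rps21 at 1361, Rps15 at 1291 and Rps27 at 1142. The lowest were Rps10 at 4.20, Rpl13a at 15.1, Rpl7l1 at 20.5, Rpl24 at 54.6 and Rps27l at 57.9, on the same scale. Processed pseudogenes are many in this family and reads shared with them were not counted, so the level of a single gene is uncertain. Without strand, reads of overlapping genes on the other strand are also not counted, and adding both strand counts raised Rpl23a 9.49-fold and Rpl24 1.39-fold.

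Epileptic and control mice with the same guide were compared to ask what the epilepsy model changed. In epileptic sgLacZ hippocampi 77 of the 78 genes had lower levels and 1 a higher one, against 48% and 52% of all genes, with a median log2 fold change of -0.53 (31.0% lower), against 0.02 over all genes tested. At an edgeR adjusted p under 0.05, 6 of the 78 fell and 0 rose, while 3.76% of all genes were called lower and 7.26% higher. At an unadjusted p under 0.05, 66 were lower and 0 higher, against 15.9% and 18.8% of all genes. By DESeq2, 35 of the 78 were called lower, with 8.97% of all genes lower and 11.7% higher, and by limma voom with quality weights 74, with 20.1% of all genes lower and 21.4% higher.

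Rps24, a 40S protein needed to process the rRNA of its subunit, had 727, 704, 629, 569 and 566 CPM in the controls. Its epileptic sgLacZ libraries ran from 218 through a median of 335 to 623 CPM. The groups overlapped only through epileptic library 5, and the log2 fold change was -0.78 ± 0.24 SE (adjusted p = 0.047).
Rpl26, a 60S protein that also binds the mRNA of p53, had 491, 468, 452, 424 and 425 CPM in controls and 187 to 478, median 267, in epileptic sgLacZ libraries. It fell by 0.62 on the log2 scale (SE 0.19, adjusted p = 0.046), again with library 5 among the controls.
Rps4x, the X-linked 40S protein, was the single gene whose groups did not overlap, where 2.4% of all genes lay wholly lower and 2% wholly higher. Controls had 483, 453, 475, 440 and 452 CPM and epileptic sgLacZ libraries 233 to 438, median 306. It fell by 0.49 on the log2 scale (SE 0.13, adjusted p = 0.036).
Rpl17, which lines the exit tunnel for the new peptide, fell by 0.55 (SE 0.15, adjusted p = 0.038), and Rps3a, a 40S protein, by 0.51 (SE 0.15, adjusted p = 0.043), both on the log2 scale.

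**Figure D3:**
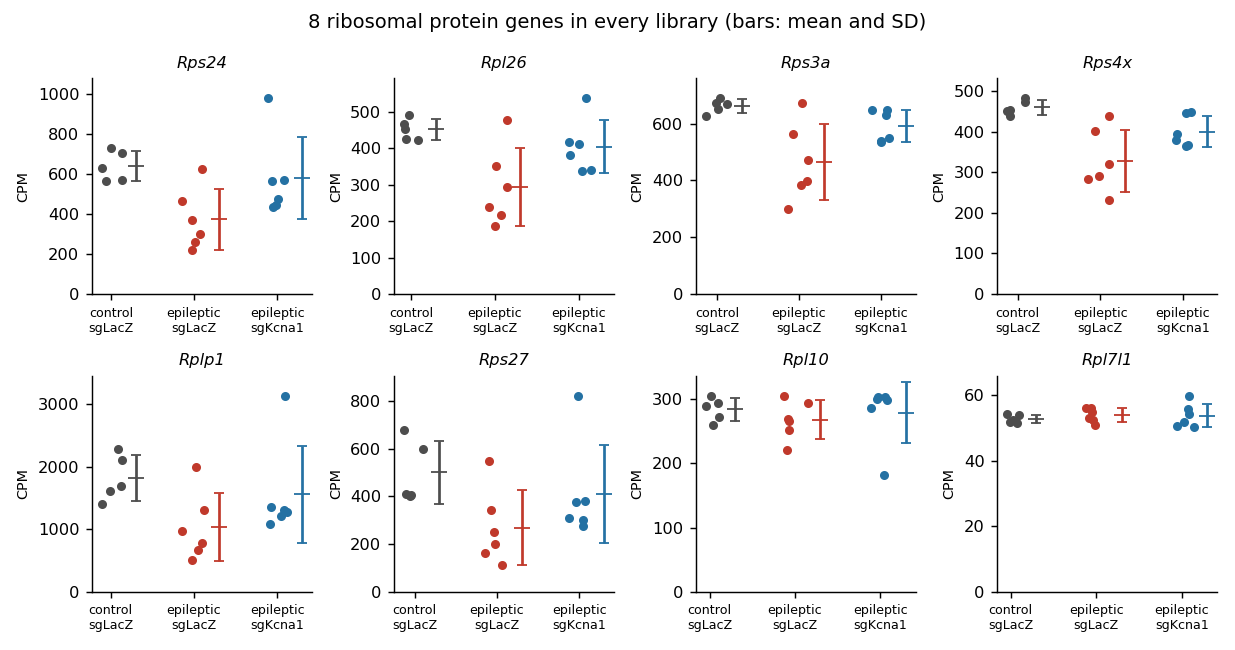
CPM of 8 ribosomal protein genes in every library (points), with the mean and SD of each group (bars) on axes that start at 0. Rps24, Rpl26, Rps3a and Rps4x have lower epileptic sgLacZ means, and Rpl7l1 stays between 50.5 and 59.9 CPM in all 17 libraries.

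The 6 calls changed with single libraries, and so did the calls over all genes. No call was left among the 78 when any of the controls was taken out, or without epileptic sgLacZ library 4, 6, 7 or 9, and taking out a single library removed every call, over all genes, in 7 of 17 cases. Without epileptic sgLacZ library 5, 72 of the 78 were called lower (15.3% of all genes), without library 8, 17 (4.72%), and without sgKcna1 library 12, 48 (12.1%). Without sgKcna1 library 3 or 10, 2 were (1.78% and 1.53% of all genes). With the unmapped share as a covariate 1 of the 78 was called lower (0.999% of all genes), and with sex, taken from whichever of Xist and Y-linked reads was larger, 0 were (0.721% of all genes). That assignment is uncertain, since in 5 of the 17 libraries the smaller of these reads came to 5% or more of the larger. Libraries with more Xist than Y-linked reads numbered 2 of 5 controls, 4 of 6 epileptic sgLacZ and 2 of 6 epileptic sgKcna1, and the ribosomal protein share averaged 3.01%, 2.29% and 3.11% in them and 3.37%, 2.36% and 2.75% in the others.

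The size of the difference followed the length of the protein. Among the 26 shortest, of 51 to 132 residues, the median log2 fold change was -0.72, in the middle 26 it was -0.49, and among the 26 longest, of 192 to 419 residues, it was -0.39. Over the 78 genes Spearman's rho of log2 fold change with coding length was 0.66, a description across genes that share libraries and annotation. The largest differences were in Rps21 (-0.92 ± 0.40), Rps27 (-0.89 ± 0.34), Rpl37a (-0.86 ± 0.38) and Rps29 (-0.84 ± 0.33), all small proteins, and these did not pass at adjusted p of 0.080 to 0.115. At the other end lay Rpl7l1 (0.03 ± 0.07), Rpl24 (-0.01 ± 0.09), Rpl10 (-0.08 ± 0.12), Rpl4 (-0.17 ± 0.11) and Rplp0 (-0.17 ± 0.11). These genes were named after their values were seen, except Rps27, Rpl10, Rplp0 and Rpl7l1.

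**Figure D4:**
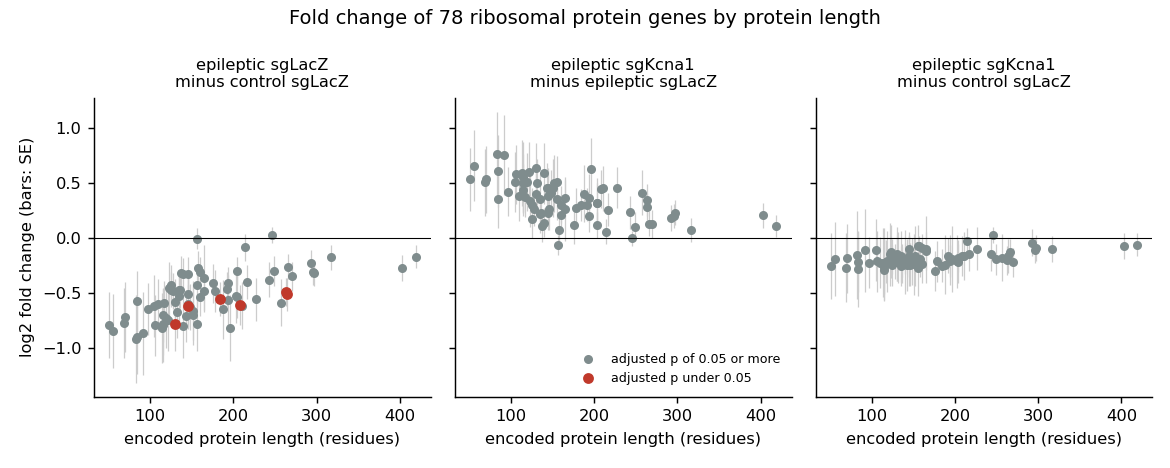
Log2 fold change with its SE (bars) for the 78 genes in each of the 3 comparisons, against the length of the encoded protein; red points have an edgeR adjusted p under 0.05. In the left panel short proteins lie lowest, and the middle panel has the opposite slope with no gene called.

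Other genes of like length moved too. Among genes with transcripts of up to 600 bases, the median log2 fold change was -0.71 for 22 ribosomal protein genes and -0.59 for 275 others, and from 600 to 1000 bases it was -0.49 for 37 and -0.36 for 898 others. Above 1000 bases it was -0.41 for 19 ribosomal protein genes and 0.09 for 13368 others. Among these others it ran from -0.17 for 1627 genes of 1000 to 1500 bases to 0.23 for 3457 over 4000 bases. With an offset for transcript length and GC content in the fit, the median over the 78 genes was -0.26, against -0.06 over all genes. In it 70 of the 78 were below 0 and 1 was called lower, as 0.993% of all genes were. Short mRNAs of other kinds had lower values in the same libraries, and how far length accounts for the values of the 78 genes was not tested beyond this fit.

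**Figure D5:**
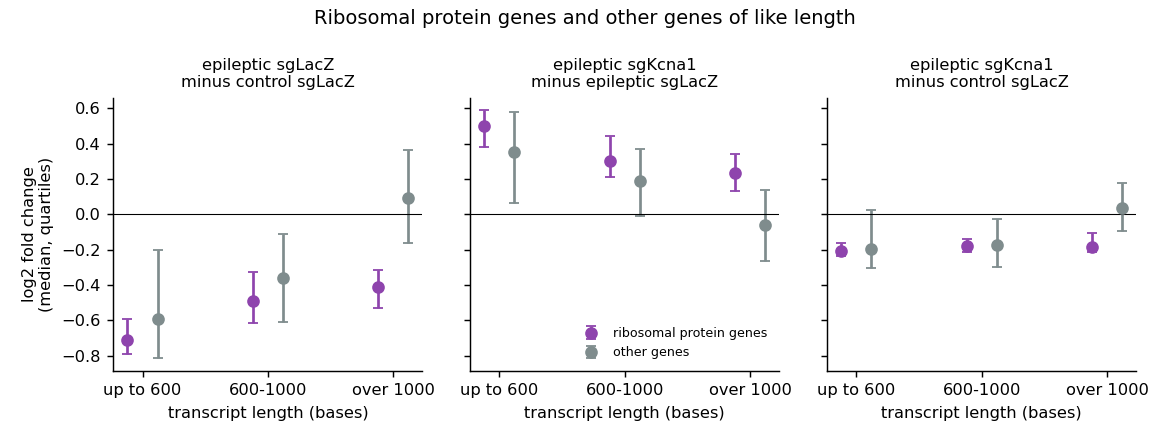
Median log2 fold change, with quartiles as bars, of the ribosomal protein genes and of all other genes in 3 classes of transcript length, for each comparison. Below 1000 bases both sets lie on the same side of 0, and above it the other genes lie near 0.

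The stalk proteins Rplp0, Rplp1 and Rplp2, which draw GTPase factors to the ribosome, had log2 fold changes of -0.17 ± 0.11, -0.82 ± 0.31 and -0.79 ± 0.33, and none passed (adjusted p 0.290, 0.081 and 0.102). Rplp1 was at 2293, 2116, 1409, 1620 and 1695 CPM in controls and at 508 to 1998, median 875.5, in epileptic sgLacZ libraries. Rps6, the substrate of the S6 kinases, differed by -0.30 ± 0.14 (adjusted p = 0.134), Rpl3, near the peptidyl transferase centre, by -0.27 ± 0.12 (0.107), Rpl39, in the exit tunnel, by -0.79 ± 0.30 (0.078), and Rps27a, made as a fusion with ubiquitin, by -0.78 ± 0.25 (0.051). Rpl13a differed by -0.53 ± 0.24 (0.127).

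Paralogues were compared within each library as a ratio of CPM. Rpl22l1 over Rpl22 was 0.279 to 0.370 in controls, 0.201 to 0.373 in epileptic sgLacZ and 0.258 to 0.429 in epileptic sgKcna1 libraries. Rps27l over Rps27 was 0.0588 to 0.0825, 0.0667 to 0.106 and 0.0630 to 0.0878 in the same order. The log2 ratio of Rps27l to Rps27 was higher by 0.41 in epileptic sgLacZ than in control libraries (exact permutation test, two-sided, p = 0.0173, adjusted p = 0.104 over 6 tests), and no ratio passed after adjustment. Adding both strand counts raised Rpl22l1 2.88-fold, so reads not counted for it limit that ratio.

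Of ribosomal proteins left out by the symbol rule, Rpsa differed by -0.58 ± 0.20 (adjusted p = 0.059), Fau by -0.73 ± 0.32 (0.112) and Gnb2l1, or Rack1, by -0.24 ± 0.10 (0.114), with 0 of 4 tested called. Rps4y2, the symbol that stands for Rps4l and not among these 4, differed by -0.40 ± 0.18 (adjusted p = 0.124). Among 17 translation factors and other genes with TOP mRNAs, 3 fell and 1 rose. Npm1, a nucleolar chaperone of ribosome assembly, fell by 0.52, Btf3 by 0.66 and Eif3e by 0.48, while Eef2, the translocation factor, rose by 0.87 (log2, adjusted p 0.033, 0.036, 0.042 and 0.036). Of 54 tested genes of rRNA synthesis and assembly, 4 rose, with Polr1a, the catalytic subunit of RNA polymerase I, at 0.60, and 2 fell, with the pseudouridine synthase Dkc1 at -0.69, which are shares near the 7.26% and 3.76% of all genes. The mTORC1 list had 5 risen and 1 fallen of 22, with Mtor at 0.79, Rptor at 0.84, Tsc2 at 0.86 and Rheb at -0.39. The calls in these lists, too, were all lost in those 7 cases. How far transcript length accounts for the values in these lists was not tested. Median log2 fold changes were -0.36 for 74 mitochondrial ribosomal protein genes (10 lower, 1 higher), -0.54 for 80 oxidative phosphorylation genes (10 lower, 0 higher) and -0.36 for 35 proteasome genes (7 lower, 0 higher), with -0.53 for the 78 here.

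Epileptic mice with the 2 guides were compared to ask what the Kcna1 guide changed in epilepsy, and they share the epileptic sgLacZ libraries with the comparison above. In sgKcna1 hippocampi 76 of the 78 genes had higher means, and 2 lower ones, against 49.3% and 50.7% of all genes, with a median log2 fold change of 0.35 against -0.01 over all genes. None passed (0% of all genes higher, 0% lower), and at an unadjusted p under 0.05, 14 were higher and 0 lower, against 8.69% and 10.5% of all genes. DESeq2 called 0 of the 78, with 0.401% of all genes higher and 0.480% lower, and limma voom 0, with 0.0568% and 0.0114%. At an unadjusted p under 0.05, 20 were higher with DESeq2 and 70 with limma voom, and 0 were lower with either. Over all genes, 1794 and 2534 were higher at that p, and 1932 and 2540 lower, in the same order.

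Among the smallest p-values were those of Rps24 (0.63 ± 0.23), Rpl26 (0.46 ± 0.18) and Rpl14 (0.46 ± 0.19), at adjusted p of 0.213 to 0.226, which do not pass. Rps24 had 433 to 979 CPM, median 521, in epileptic sgKcna1 libraries, whose highest value was library 12. The 26 shortest had a median log2 fold change of 0.51 and the 26 longest 0.23. Without epileptic sgLacZ library 5, 40 of the 78 were called higher, with 4.29% of all genes higher and 4.25% lower. Without sgKcna1 library 12, 0 were called, the median was 0.24, and 4 were higher at an unadjusted p under 0.05. Without epileptic sgLacZ library 4, 7 or 9, 0 were called, and 3, 2 and 3 were higher at that p. Over all genes, 991, 925, 932 and 943 were higher at that p in the same order. With the unmapped share as a covariate the median over the 78 genes was 0.07, and 0 were higher at that p (702 over all genes). With the offset for length and GC content the median was 0.23, against 0.06 over all genes. In that fit 42 of the 78 were higher at that p (2524 over all genes), and 0 were called.

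Epileptic sgKcna1 and control mice were compared last, and this comparison shares a group with each of the others. Of the 78 genes 77 had lower means in epileptic sgKcna1 libraries and 1 a higher one, against 47.2% and 52.8% of all genes, with a median log2 fold change of -0.19 against 0.02 over all genes. None passed, as 0% of all genes did, and 0 were below an unadjusted p of 0.05, where 2.48% of all genes were lower and 4.29% higher. DESeq2 called 0 of the 78, with 0.136% of all genes higher and 0.0852% lower, and limma voom 0, with 0.204% and 0.199%. At an unadjusted p under 0.05, however, 32 were lower with limma voom and 37 with the unmapped share as a covariate. With only these groups in the fit, 11 were. Over all genes, 2070, 1581 and 654 were lower at that p in the same order. With the offset for length and GC content the median was -0.03, against 0.004 over all genes. Of the 78 genes, 50 were below 0 in that fit and 28 above.

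Rpl7 (-0.22 ± 0.13), Rpl17 (-0.25 ± 0.15) and Rps4x (-0.20 ± 0.13) were among the genes with the smallest p-values, at adjusted p of 0.766 to 0.771. In 4 genes, Rpl6, Rpl7 and Rps7 among them, every epileptic sgKcna1 library lay below every control, where 0.573% of all genes did so, and none lay wholly above, as 0.562% of all genes did. The genes with a pyrimidine run at the start had medians of -0.58, 0.40 and -0.18 in the 3 comparisons in the order given, and the 45 matched genes without one -0.50, 0.32 and -0.19, with no test of the difference. The split depends on the annotated base, since the run of Rps24 began with T and pyrimidines in Rpl22l1 followed a G at the start.

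Markers of other cells differed in range between groups. Summed astrocyte markers (7 genes) were 2692 to 3124 CPM in controls, 3060 to 3805 in epileptic sgLacZ and 3068 to 3524 in epileptic sgKcna1 libraries, with 2 of 7 called higher in epileptic sgLacZ. Summed blood markers (3 genes tested of 5) were 159 to 321, 46.9 to 191 and 86.2 to 380 CPM, and the epileptic sgLacZ library with the highest blood markers was library 5. Choroid plexus markers (6 genes) ran from 1201 to 12530, 4426 to 11460 and 292 to 7832 CPM, with none called. Summed interneuron markers (5 genes) were 1196 to 1503, 801 to 1354 and 969 to 1427 CPM, and oligodendrocyte markers (6 genes) 6523 to 9411, 4941 to 7248 and 2750 to 10555 CPM, with none called in either list. Summed microglial markers (9 genes) were 357 to 407, 299 to 537 and 375 to 542 CPM. In epileptic sgLacZ against control libraries, 1 of 3 blood and 1 of 4 ependymal markers were called lower, and 1 of 9 microglial markers higher. Over all genes 3.76% were called lower and 7.26% higher. The part of these cells in the ribosomal protein values was not tested.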

How the data were processed

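Poly(A) RNA of 17 hippocampi was sequenced, and the authors mapped the reads to mm10 with STAR 2.7, which gave the deposited counts per gene. Reads mapped to several places were not counted. The labels name an unstranded kit and the study's methods a stranded one; both strand columns held near equal counts, so the unstranded column was used. Symbols came from a gene name table. The members and lists were chosen with earlier results of these data known.

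Genes were tested with edgeR 4.0.16 (TMM scaling, filterByExpr by group, glmQLFit and glmQLFTest, all 17 libraries, R 4.3.3), and p-values were adjusted by Benjamini-Hochberg over 17615 genes with a threshold of 0.05. The script was tested on simulated data. DESeq2 1.42.0, limma 3.58.1, other scalings, covariates, an offset for length and GC content and leaving out each library were alternatives. The limit given for a count of 0 covers counting error only, while SDs and SEs are over libraries. Replicates are separate samples in the labels, and 40 pairs within groups differed beyond sampling noise. Genes always named were Rplp0-2, Rps6, Rpl22, Rps27, Rpl3, Rpl39, Rpl10, Rps4x, Rps27a, Rpl13a and paralogues. Per comparison, the 6 largest falls and rises past the threshold were named, or the 4 smallest p-values where none passed, and the 5 highest and lowest levels. The minimum of 5 bases for a pyrimidine run was set after the start sites were seen. Some genes that the rule names are not reported here.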

Additional observations from a re-analysis of the deposited data

Results flagged for a closer look

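Of 81 groups of values checked, 16 had a highest or lowest library whose gap to the nearest other was large for the group's range. Chance gives about 1 in 20 for independent groups. These groups share libraries, so 16 of 81 cannot be tested against that rate. In 14 of the 16 it was epileptic sgKcna1 library 12. Its share of ribosomal protein reads was 3.71%, with the next library at 2.94%. It was the highest of its group in Rps24 (979 CPM), Rpl14 (663), Rplp1 (3140), Rplp2 (891), Rpl22 (240), Rpl22l1 (103), Rps27 (823), Rps27l (51.8), Rpl3 (1043), Rpl39 (368) and Rps27a (652 CPM). It was the lowest in Rps6 (227 CPM) and Rpl10 (183 CPM). The other 2 were Rplp0 in control library 13 (412 CPM, next 355) and Rpl13a in epileptic sgLacZ library 5 (23.9 CPM, next 13.3).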

How the results depend on the processing

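The count of genes called lower in epileptic sgLacZ against control libraries was 6, and became 35 with DESeq2, 74 with limma voom and quality weights, 1 with the unmapped share as a covariate, 0 with sex as a covariate and 1 with the length and GC offset. Over all genes, 662 were called lower, and 1579, 3532, 176, 127 and 175 in the same order. Leaving out 1 library gave 0 to 72. The count higher in epileptic sgKcna1 against epileptic sgLacZ was 0 to 40 over the same fits. The direction of the median over the genes was kept in all of them, from -0.73 to -0.44, from 0.24 to 0.55 and from -0.30 to -0.13 in the 3 comparisons when a library was left out. With the length and GC offset the medians were -0.26, 0.23 and -0.03, against -0.06, 0.06 and 0.004 over all genes. With the unmapped share as a covariate they were -0.33, 0.07 and -0.26, against -0.004, 0.007 and -0.0006. The cause of the lost and gained calls was not tested. No paired analysis was possible because no replicate number occurs in more than 1 group. Depth limited Rps10, with 21 to 90 reads a library.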
